A study of Mus musculus with 14 samples.

Results

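The mRNAs described here are those of 10 ligands and receptors of the PDGF and VEGF families: Pdgfa, Pdgfb, Pdgfc and Pdgfd, Pdgfra and Pdgfrb, Vegfb and Vegfc, and Kdr and Flt1. They were chosen by gene symbol, and each of the 10 symbols was found among the 35275 genes of the deposited expression table. The table holds mouse ovarian cancer cells of 5 lines, each grown for 5 days as anchorage-independent tumorspheres in PromoCell XF medium. KMF cells came from ID8 ovarian epithelial cells of C57Bl6 background after passage in mice, and carry unedited FAK (labelled wildtype). FAK KO cells (KT13) are 1 KMF clone in which the FAK gene Ptk2 was disrupted with CRISPR/Cas9. The other 3 lines were all made from KT13 and share its disrupted Ptk2: FAK-WT re-expresses GFP-FAK, FAK-R454 re-expresses GFP-FAK without kinase activity, and β-catenin ΔGSK expresses a β-catenin that lacks its GSK3β phosphorylation sites. A difference between KMF and any other line therefore also holds whatever separates 1 clone from its parental population. The 3 lines made from KT13 were transduced (lentivirus for FAK, retrovirus for β-catenin ΔGSK), drug selected and enriched by flow cytometry. The methods describe no empty-vector control. Their differences from FAK KO therefore also hold these steps, which cannot be told apart from the expressed protein. There were 3 samples of each line except FAK-R454, which had 2. The methods describe 3 for that line too, and the third is not analysed here.

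PDGF ligands are secreted dimers that bind the receptor tyrosine kinases PDGFRα and PDGFRβ, which are best known on mesenchymal cells, fibroblasts and pericytes. VEGF ligands bind VEGFR1 (Flt1), VEGFR2 (Kdr) and VEGFR3 (Flt4), which are best known on blood and lymphatic endothelium, with neuropilins as co-receptors. Tumor cells often secrete these ligands to act on stroma and vessels, and can express some of the receptors themselves. The question for each comparison was whether loss of FAK, its re-expression with or without kinase activity, or stabilized β-catenin went with a different level of each ligand and receptor mRNA.

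Levels are FPKM as deposited, that is, fragments per kilobase of gene, scaled to the mapped fragments of the library, and are therefore comparable between genes per unit of length. Whole fragments could be recovered from the values, and 25390558 to 35289859 fragments per library lay on genes. FAK-WT sample 3 stood apart from samples 1 and 2: its chi-square per gene against them was 42.5 and 30.5, where samples 1 and 2 differed by 3.15 and pairs within the other lines by 3.44 to 30.4. KMF sample 3 also stood apart, at 23.8 and 29.1 against samples 1 and 2, which differed by 4.59. So did β-catenin ΔGSK sample 1, at 18.1 and 30.4 against samples 2 and 3, which differed by 8.75. In FAK KO, the shared reference, sample 1 was at 22.2 and 11.4 against samples 2 and 3, which differed by 8.17. Comparisons of FAK-WT with FAK KO or FAK-R454 are also given without FAK-WT sample 3, which had the largest of these values, where that changed the call of a member. Ptk2 mRNA stood at 17.6 to 20.5 FPKM in FAK KO, 23.9 to 24.8 in KMF, 42.3 to 45.4 in FAK-WT, 59.2 to 65.5 in FAK-R454 and 15.1 to 15.9 in β-catenin ΔGSK samples, and gene-level values cannot distinguish edited from re-expressed copies. Axin2, a β-catenin target, was at 102 to 114 FPKM in β-catenin ΔGSK samples and at 6.11 or less in the others. Of 14 genes of ovarian surface epithelium and mesothelium, 9 had a mean above 1 FPKM in every line and 5 were at 1 FPKM or less in all samples. Among the 9, the epithelial keratin genes Krt8, Krt18 and Krt19 had line means between 181 and 644 FPKM. Among the 5, Krt7, Cdh1, Epcam and Pax8 had line means of 0.760 or less. The defining endothelial gene Cdh5 was at a line mean of 0.0227 FPKM or less, and Cldn5 and Erg had 0 fragments in all 14 libraries.

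Of the 10 mRNAs, 7 were expressed above 1 FPKM in every comparison and could be tested: Pdgfa, Pdgfb, Pdgfc, Vegfb, Vegfc, Pdgfra and Flt1. The other 3 were at or near 0. Pdgfd, which encodes a ligand of PDGFRβ, had 0 fragments in all 14 libraries, and the limit of 3 fragments allows up to 0.0279 to 0.0387 FPKM depending on the library. Kdr, the main signalling receptor for VEGF on blood vessels, had 1 fragment in 1 of 14 libraries, a β-catenin ΔGSK sample. Pdgfrb, the receptor on pericytes, had 27 fragments in 7 libraries. FAK-WT samples held 20 of these (9, 8 and 3), KMF samples 5 (3, 1 and 1) and 1 β-catenin ΔGSK sample 2, and no library of FAK KO or FAK-R454 held any. At this depth, mRNAs of ligands for both PDGF receptors were thus present above 1 FPKM, but of the receptors Pdgfra alone, and in β-catenin ΔGSK cells no PDGF receptor mRNA reached 1 FPKM.

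**Figure D1:**
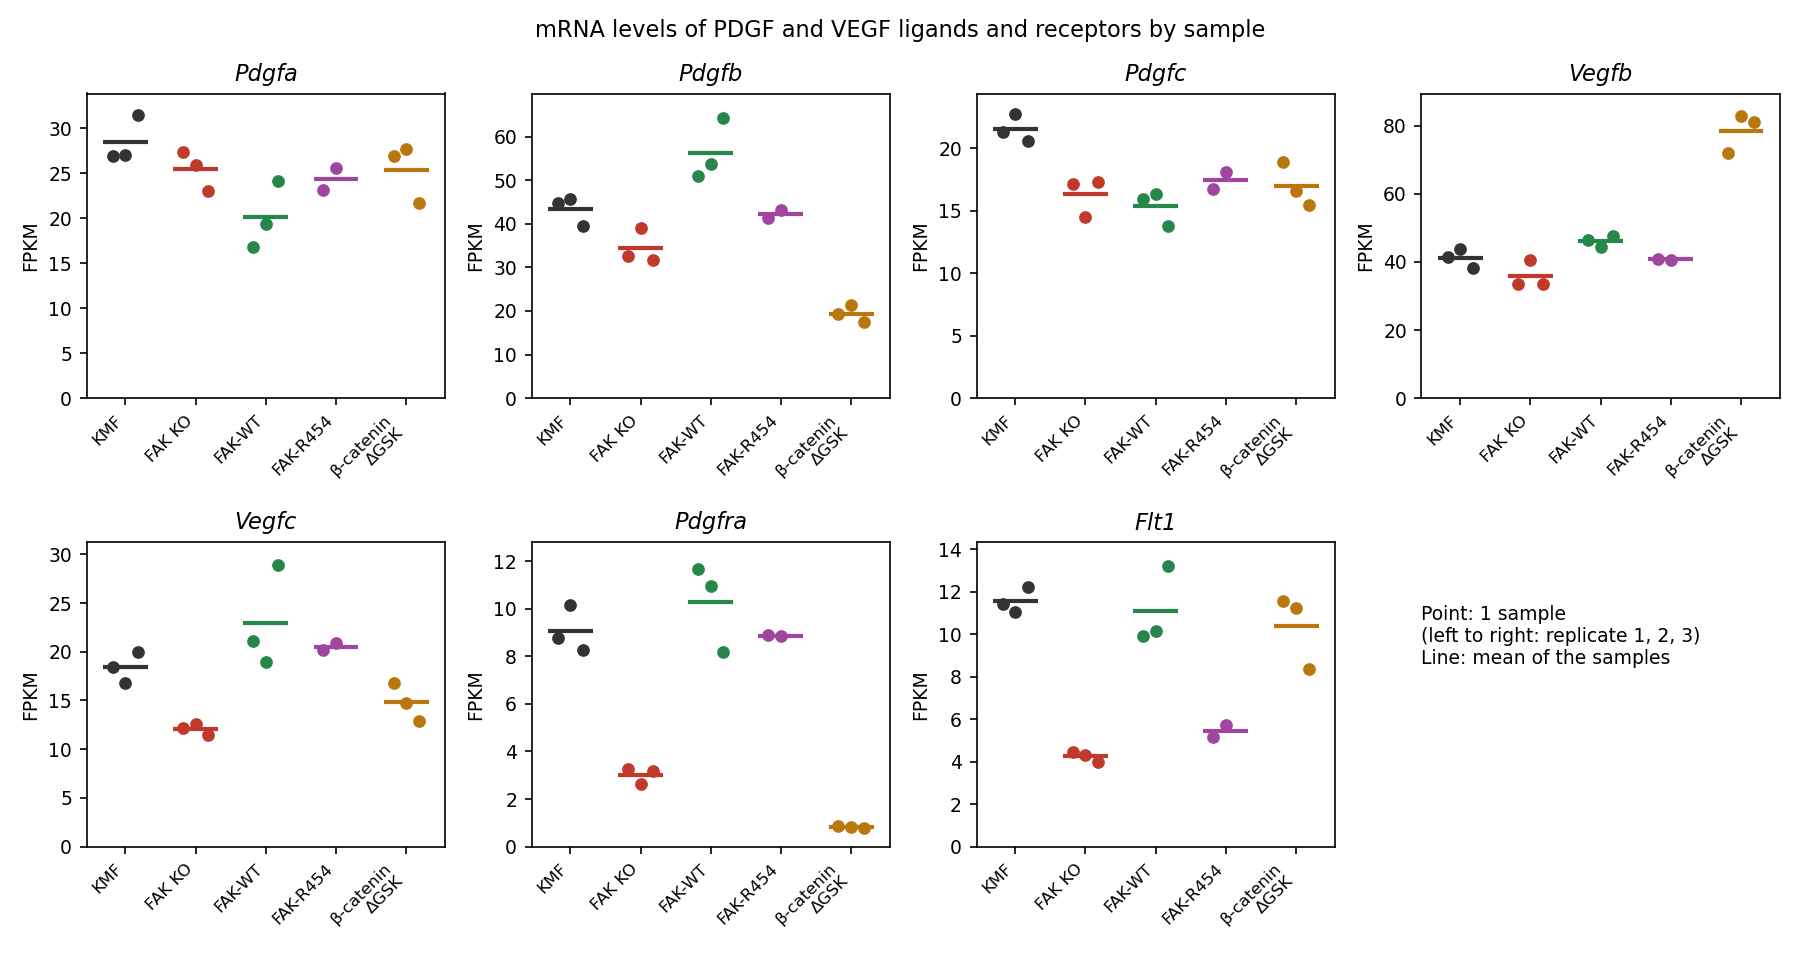
FPKM of the 7 expressed ligand and receptor mRNAs in each of 14 samples (points) of 5 lines, with the mean of each line (horizontal line) and every axis starting at 0. Pdgfra ran from 0.765 FPKM in a β-catenin ΔGSK sample to 11.7 in a FAK-WT sample, while Pdgfa and Pdgfc stayed within 13.7 to 31.5 FPKM.

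PDGFRα, encoded by Pdgfra (ENSMUSG00000029231, chromosome 5, 75152291 to 75198204, plus strand), binds PDGF-A, PDGF-B and PDGF-C. Its line means spanned 3.50 on the log2 scale, the widest range of the 7 expressed members. It was at 3.25, 2.65 and 3.18 FPKM in the FAK KO samples. In FAK-WT samples it was at 11.7, 10.9 and 8.19 FPKM, and in the FAK-R454 samples at 8.91 and 8.84. KMF samples held 8.78, 10.2 and 8.25 FPKM. In β-catenin ΔGSK samples it was at 0.863, 0.815 and 0.765 FPKM, below every sample of every other line. These last values rest on 136 to 161 fragments per library.

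Relative to FAK KO, Pdgfra rose by a log2 fold change of 1.72 in FAK-WT (standard error, SE, 0.14, adjusted p = 1.21e-04 from limma), 1.53 in FAK-R454 (SE 0.11, adjusted p = 1.42e-04) and 1.55 in KMF cells (SE 0.11, adjusted p = 1.20e-05). In β-catenin ΔGSK cells it fell by 1.77 (SE 0.14, adjusted p = 1.11e-05). Samples did not overlap in any of these 4 comparisons, all of which share the same 3 FAK KO samples, and the same held for 56.1%, 55.1%, 60.8% and 64.2% of all genes tested in FAK-WT, FAK-R454, KMF and β-catenin ΔGSK over FAK KO. FAK-WT and FAK-R454 differed by 0.19, with a 95% interval from -0.17 to 0.56 and an adjusted p of 0.450, so a difference between them was not detectable with these samples. Without FAK-WT sample 3 this difference was 0.34 and passed (adjusted p = 0.00422). The order of line means was FAK-WT, KMF, FAK-R454, FAK KO and β-catenin ΔGSK. The first 3 neighbours did not differ beyond their spread, whereas FAK-R454 against FAK KO and FAK KO against β-catenin ΔGSK did. Without FAK-WT sample 3, FAK-WT stood 0.32 above KMF and passed (adjusted p = 0.0374 from limma).

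Since Pdgfra and Flt1, both on chromosome 5, moved in opposite directions in β-catenin ΔGSK cells (by -1.77 and 1.26 over FAK KO), the 250 bases before their RefSeq start sites (GRCm38.p6) are shown. Capitals mark matches to CCGCCC, the reverse complement of the SP/KLF letters GGGCGG.
Pdgfra, chr5:75152001-75152250, plus strand: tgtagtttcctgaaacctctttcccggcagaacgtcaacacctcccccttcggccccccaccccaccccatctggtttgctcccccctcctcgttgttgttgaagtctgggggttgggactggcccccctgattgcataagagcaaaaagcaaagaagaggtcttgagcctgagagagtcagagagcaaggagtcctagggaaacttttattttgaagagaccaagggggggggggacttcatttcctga
Flt1, chr5:147726012-147726261, minus strand: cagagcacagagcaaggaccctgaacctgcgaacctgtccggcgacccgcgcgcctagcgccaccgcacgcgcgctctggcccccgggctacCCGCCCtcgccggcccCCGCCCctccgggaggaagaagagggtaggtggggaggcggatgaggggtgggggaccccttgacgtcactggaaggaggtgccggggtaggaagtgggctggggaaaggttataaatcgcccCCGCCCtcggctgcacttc
The Pdgfra window had 54.4% G and C and 4 CpG dinucleotides, near the median of 52.4% over 32851 promoter windows. The Flt1 window had 70.4% and 23, with 3 matches to CCGCCC. Windows of the same length were searched on both strands for 5 sets of letters: CTTTGA (TCF/LEF, present in 13.8% of all windows), GGAATG (TEAD, 12.6%), ACGTG (HIF, 16.6%), GGGCGG (SP/KLF, 32.7%) and TGANTCA (AP-1, 6.75%). None of the 5 occurred in the Pdgfra window, and 1 of the 5, SP/KLF, in the Flt1 window. Promoter entries were found for 8 of the 10 genes. SP/KLF letters were also present before Vegfb, Vegfc, Kdr and Pdgfa, and Pdgfc had 1 TEAD match. A match in letters is a description, and its use in these cells was not measured.

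In each of the 5 lines Pdgfa, Pdgfb and Pdgfc had a higher mean FPKM than Pdgfra, and they did not move as a group. Pdgfb (ENSMUSG00000000489, chromosome 15, 79995900 to 80014808, minus strand) encodes PDGF-B, which binds both PDGF receptors and recruits pericytes to vessels. It was at 32.7, 39.0 and 31.8 FPKM in FAK KO samples and at 51.0, 53.7 and 64.3 in FAK-WT samples. FAK-R454 samples held 41.3 and 43.3 FPKM, and KMF samples 44.8, 45.8 and 39.6. The β-catenin ΔGSK samples, at 19.2, 21.3 and 17.6 FPKM, were the lowest of all. Pdgfb thus rose in FAK-WT over FAK KO cells by 0.71 (SE 0.11, adjusted p = 0.00190 from limma) and in KMF cells by 0.33 (SE 0.09, adjusted p = 0.0164), and fell in β-catenin ΔGSK cells by 0.83 (SE 0.10, adjusted p = 1.67e-04). In FAK-R454 cells the log2 fold change of 0.30 did not pass (adjusted p = 0.0576), although the samples did not overlap, as for 55.1% of all genes tested. It passed without FAK KO sample 2 (0.39, adjusted p = 0.00217) and with limma-voom on recovered fragments (adjusted p = 0.0347).

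Pdgfb lies on chromosome 15, whose 479 tested genes had a median log2 fold change 0.39 above that of the other chromosomes in FAK-WT over FAK KO cells. The same shift was 0.18 in FAK-R454, 0.11 in KMF and 0.10 in β-catenin ΔGSK cells. With each chromosome centred on its own median, Pdgfb still rose in FAK-WT (0.41, adjusted p = 0.0337 from limma) and still fell in β-catenin ΔGSK cells. The rise in KMF cells then missed the threshold (adjusted p = 0.0501), and it was also lost with any of 4 single samples left out.

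Pdgfa (ENSMUSG00000025856, chromosome 5, 138976014 to 138997370, minus strand) encodes PDGF-A, a ligand of PDGFRα alone. Its level was at 27.4, 25.8 and 23.0 FPKM in FAK KO, 26.9, 27.0 and 31.5 in KMF, 23.2 and 25.6 in FAK-R454, and 26.9, 27.6 and 21.7 in β-catenin ΔGSK samples. FAK-WT samples, at 16.7, 19.4 and 24.1 FPKM, had the lowest mean and overlapped FAK KO. No comparison with FAK KO passed, the nearest being -0.35 in FAK-WT cells (95% interval -0.64 to -0.06, adjusted p = 0.0561 from limma). Without FAK-WT sample 3 that difference was -0.49 and passed (adjusted p = 0.00686), and it also passed in 1 fit of 5 lines and with limma-voom on the recovered fragments. In KMF cells the difference of 0.16 did not pass, but with each chromosome centred it was 0.35 and did (adjusted p = 0.0144), where genes of chromosome 5 had a median 0.14 below the other chromosomes. Between FAK-WT and KMF, where 41.6% of all genes differed, Pdgfa was lower in FAK-WT and passed. This call was kept in 9 of 9 other settings (log2 fold change -0.58 to -0.47) and with 4 of 6 single samples left out (-0.65 to -0.39 over the 6). The gene shares 813 exon bases with 6330403L08Rik on the other strand, listed at a mean of 3.52 FPKM, and it is not stated whether counting used strand.

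Pdgfc (ENSMUSG00000028019, chromosome 3, 81036416 to 81214040, plus strand) encodes PDGF-C, secreted in a latent form that plasminogen activators can cleave. All samples of the FAK KO clone and of the 3 lines made from it lay between 13.7 and 18.9 FPKM, with no difference from FAK KO that passed. KMF samples were higher, at 21.3, 22.8 and 20.6 FPKM, and did not overlap any other line. In KMF over FAK KO alone 60.8% of all genes tested did not overlap, and the share apart from every other line was not computed. The rise in KMF over FAK KO was 0.40 (SE 0.08, adjusted p = 0.00438 from limma). Genes of chromosome 3 had a median 0.27 above the other chromosomes in that comparison, and with each chromosome centred the difference was 0.16 and was no longer called (adjusted p = 0.0887).

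The sum of PDGF ligand mRNA was 76.2 ± 3.73 FPKM in FAK KO (SD, n = 3), 91.7 ± 9.43 in FAK-WT (SD, n = 3), 84.1 ± 4.04 in FAK-R454 (SD, n = 2), 93.4 ± 1.96 in KMF (SD, n = 3) and 61.7 ± 6.12 in β-catenin ΔGSK cells (SD, n = 3). Pdgfb made up 61.3% ± 1.49 of it in FAK-WT, 45.2% ± 3.53 in FAK KO and 31.4% ± 1.63 in β-catenin ΔGSK samples (SD, n = 3 each). In β-catenin ΔGSK cells Pdgfa was the leading ligand instead, at 41.1% ± 1.30 (SD, n = 3). These shares were not tested, and the 3 samples of FAK-WT cells (60.1% to 63.0%) did not overlap those of any other line.

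**Figure D2:**
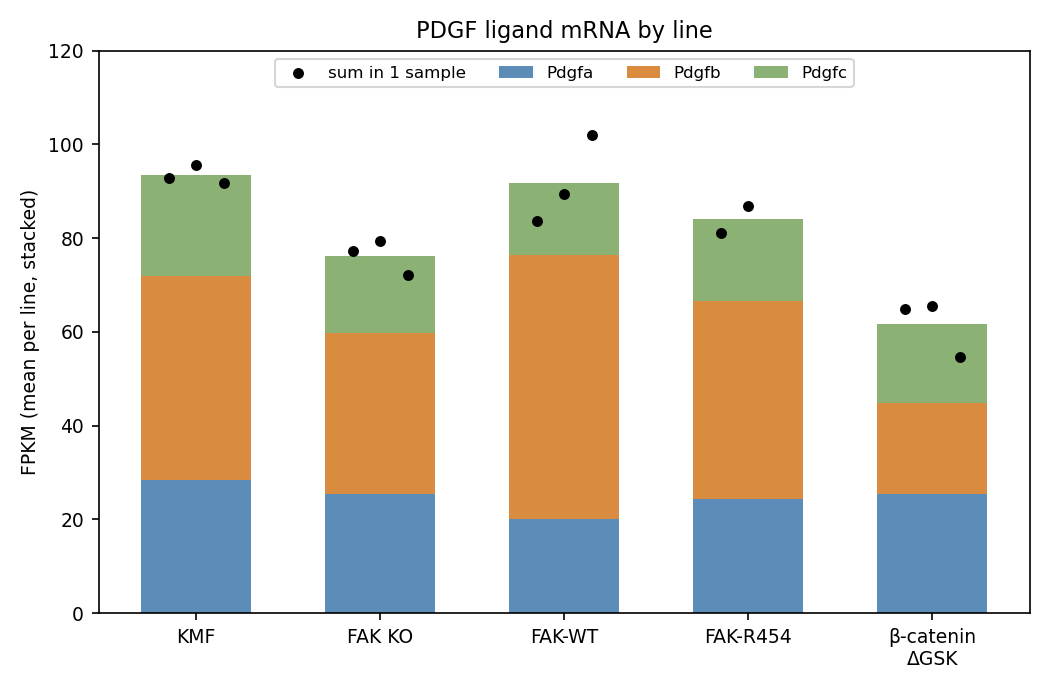
Mean FPKM of Pdgfa, Pdgfb and Pdgfc stacked per line (bars), with the sum in each sample (points). Pdgfb, the middle segment, was 56.3 FPKM in FAK-WT and 19.4 FPKM in β-catenin ΔGSK cells, while the lowest segment, Pdgfa, lay between 20.1 and 28.5 FPKM.

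Among VEGF ligands, Vegfb (ENSMUSG00000024962, chromosome 19, 6982473 to 6987651, minus strand) encodes VEGF-B, which binds VEGFR1 and Nrp1. It was the most abundant of the 7 in β-catenin ΔGSK cells, at 72.0, 82.8 and 81.0 FPKM. FAK KO samples held 33.5, 40.5 and 33.5 FPKM, FAK-WT samples 46.5, 44.3 and 47.7, FAK-R454 samples 40.8 and 40.7, and KMF samples 41.5, 43.7 and 38.3. The β-catenin ΔGSK samples stood above all others without overlap, where 64.2% of all genes tested did not overlap in β-catenin ΔGSK over FAK KO alone. Vegfb rose over FAK KO by 1.13 in β-catenin ΔGSK (SE 0.09, adjusted p = 1.58e-05 from limma) and by 0.37 in FAK-WT cells (SE 0.08, adjusted p = 0.0107). The second of these was lost without FAK KO sample 3 (adjusted p = 0.0515). In KMF and FAK-R454 cells the differences of 0.20 and 0.19 did not pass. Genes of chromosome 19 had a median 0.23 below the other chromosomes in KMF over FAK KO, and with each chromosome centred the KMF difference in Vegfb was 0.45 and passed (adjusted p = 0.00441). It also passed in 1 fit of 5 lines, without KMF sample 3 (0.25) and without FAK KO sample 2 (0.29). The FAK-R454 difference passed without FAK KO sample 2 alone (0.28, adjusted p = 0.00744).

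Vegfc (ENSMUSG00000031520, chromosome 8, 54077532 to 54186454, plus strand) encodes VEGF-C, the lymphangiogenic ligand of VEGFR3. FAK KO samples were the lowest, at 12.1, 12.6 and 11.5 FPKM. FAK-WT samples held 21.1, 18.9 and 28.9 FPKM, with sample 3 the highest of all 14. FAK-R454 samples were at 20.1 and 20.9 FPKM, KMF samples at 18.4, 16.8 and 19.9, and β-catenin ΔGSK samples at 16.8, 14.7 and 12.8. No line overlapped FAK KO, as for 21% of the 11620 genes tested in all 4 comparisons. Vegfc and Flt1 were the 2 members that rose in each of the 4 lines, as did 2.34% of these genes, and the comparisons share their FAK KO samples. Vegfc rose by 0.90 in FAK-WT (SE 0.14, adjusted p = 0.00203 from limma), 0.76 in FAK-R454 (SE 0.07, adjusted p = 4.38e-04), 0.60 in KMF (SE 0.08, adjusted p = 3.73e-04) and 0.29 in β-catenin ΔGSK cells (SE 0.10, adjusted p = 0.0392). The last of these passed in 6 of 9 other settings and with 2 of 6 single samples left out. FAK-WT and FAK-R454 differed by 0.14 (95% interval -0.28 to 0.56, adjusted p = 0.636).

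The ratio of Vegfb to Vegfc mRNA was 5.40 ± 1.03 in β-catenin ΔGSK and 2.97 ± 0.235 in FAK KO cells, against 2.07 ± 0.366 in FAK-WT, 2.26 ± 0.338 in KMF (SD, n = 3 each) and 1.99 ± 0.0563 in FAK-R454 cells (SD, n = 2). Samples of β-catenin ΔGSK cells (4.28 to 6.31) did not overlap those of any other line (up to 3.22).

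VEGFR1 is encoded by Flt1 (ENSMUSG00000029648, chromosome 5, 147561604 to 147726011, minus strand), a receptor for VEGF-B that also exists as a secreted decoy. Gene-level values cannot distinguish its secreted form. Flt1 was at 4.45, 4.29 and 3.98 FPKM in FAK KO and 5.13 and 5.74 in FAK-R454 samples. FAK-WT samples held 9.91, 10.2 and 13.2 FPKM, KMF samples 11.4, 11.0 and 12.2, and β-catenin ΔGSK samples 11.5, 11.2 and 8.36. The lines thus fell into a low pair, FAK KO and FAK-R454, and 3 lines with every sample above 8 FPKM. Without FAK-WT sample 3, Flt1 in FAK-WT was at -0.20 relative to KMF and passed (adjusted p = 0.0465 from limma), where the value with it was -0.07 (adjusted p = 0.657). Relative to FAK KO, Flt1 rose by 1.35 in FAK-WT (SE 0.12, adjusted p = 1.45e-04 from limma), 1.42 in KMF (SE 0.08, adjusted p = 3.00e-06) and 1.26 in β-catenin ΔGSK cells (SE 0.13, adjusted p = 5.45e-05). In FAK-R454 cells it rose by 0.35 (SE 0.10, adjusted p = 0.0423), a call lost in 4 of 9 other settings and with 3 of 5 single samples left out.

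FAK-WT and FAK-R454 both carry GFP-FAK and differ in its kinase activity. They also differed in Ptk2 mRNA, at 43.4 ± 1.76 FPKM in FAK-WT (SD, n = 3) and 62.4 ± 4.42 in FAK-R454 (SD, n = 2) without overlap, and its part in the results was not tested. Flt1 was the only 1 of the 7 tested members that passed, at 1.01 higher in FAK-WT (SE 0.14, 95% interval 0.67 to 1.34, adjusted p = 0.0160 from limma), that is, by 2-fold or more. With a pseudocount of 1 or with each chromosome centred, Flt1 still passed but was below 2-fold. Of all genes tested, 7.82% passed in either direction, and 0.696% were 2-fold or more higher in FAK-WT. Without FAK-WT sample 2, or without either FAK-R454 sample, no member passed, the highest adjusted p for Flt1 being 0.178, while its log2 fold change was 1.06, 0.93 and 1.08. Of all genes, 157, 7 and 8 passed in these fits, and with 1 FAK-R454 sample the spread comes from FAK-WT alone. Without FAK-WT sample 3, where 12.8% of all genes were higher and 15.3% lower, 5 members passed: Pdgfb, Vegfb, Pdgfra and Flt1 were higher in FAK-WT and Pdgfa was lower. With Flt1 at 0.88 then, none of these was 2-fold.

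**Figure D3:**
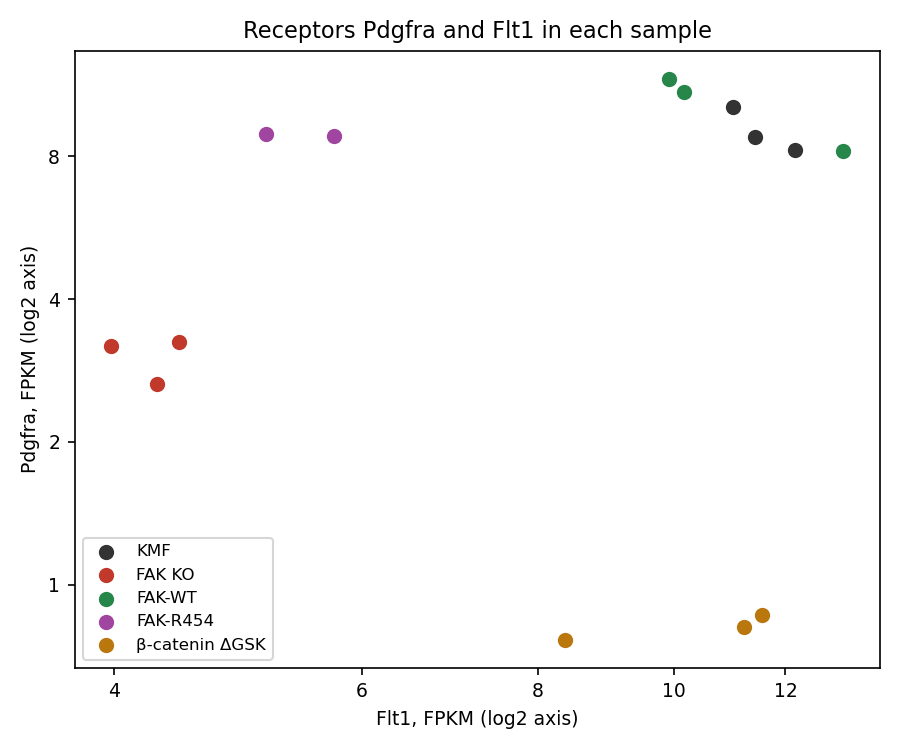
FPKM of Flt1 (x) and Pdgfra (y) in each of 14 samples, both on log2 axes, coloured by line. FAK KO samples are low in both, FAK-R454 samples have low Flt1 (5.13 and 5.74) with high Pdgfra (8.84 and 8.91), and β-catenin ΔGSK samples have high Flt1 (8.36 to 11.5) with Pdgfra below 1.

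The 2 receptors were therefore separable. The ratio of Pdgfra to Flt1 mRNA was 0.715 ± 0.0914 in FAK KO, 0.958 ± 0.296 in FAK-WT and 0.789 ± 0.123 in KMF cells (SD, n = 3 each). It was higher in FAK-R454, at 1.54 and 1.73, than in any sample of the other lines (up to 1.18), and lower in β-catenin ΔGSK cells, at 0.0727 to 0.0915, than in any other sample. In bulk RNA, a lower level in a line can come from fewer expressing cells or from less mRNA per cell, which cannot be told apart here.

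Counted over all 10 genes, 7 of which passed the filter on low values, 5 rose and 0 fell in FAK-WT over FAK KO cells, and 2 of the 5, Pdgfra and Flt1, by 2-fold or more. Of the 11841 genes tested there, 15.6% rose and 25.2% fell, and 2.91% rose by 2-fold or more. With median-of-ratios scaling, 20.5% of all genes rose and 17.1% fell. In FAK-R454 cells 3 rose (Pdgfra, Vegfc and Flt1) and 0 fell, against 9.78% and 9.89% of all genes, and 1 rose by 2-fold or more against 1.93%. In KMF cells 5 rose (Pdgfra, Flt1, Vegfc, Pdgfc and Pdgfb) and 0 fell, against 23.1% and 28.7%, with 2 by 2-fold or more against 3.97%. In β-catenin ΔGSK cells 3 rose (Flt1, Vegfb and Vegfc) and 2 fell (Pdgfra and Pdgfb), against 23.7% and 34.4% of all genes. The median log2 fold change over the 7 was 0.71 in FAK-WT, 0.30 in FAK-R454, 0.40 in KMF and 0.05 in β-catenin ΔGSK cells, where the medians of all tested genes were -0.08, -0.03, -0.05 and -0.09. With 7 genes, these counts describe the members and do not set them apart from other genes. Over the 28 pairs of neighbours in the order of line means, 10 differed beyond their spread (7 to 13 under the alternatives). Pdgfa was the 1 member with no such pair, although it was lower in FAK-WT than in KMF cells, which are not neighbours in its order. Among the 10 pairs, the least stable calls without FAK KO were Vegfc in KMF over β-catenin ΔGSK and Pdgfb in FAK-WT over KMF. The first passed in 5 of 9 other settings and with 2 of 6 single samples left out, the second in 7 of 9 and with 4 of 6. Pdgfc in FAK-R454 over KMF passed in 8 of 9 (log2 fold change -0.34 to -0.03 over the 9) and with 4 of 5. Of all genes tested, 40.8%, 19.7%, 51.8% and 58.1% differed from FAK KO in FAK-WT, FAK-R454, KMF and β-catenin ΔGSK cells, 56.9%, 43.6% and 41.6% differed from KMF in β-catenin ΔGSK, FAK-R454 and FAK-WT cells, and 50.8% and 49% of genes in β-catenin ΔGSK cells differed from FAK-WT and from FAK-R454.

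**Figure D4:**
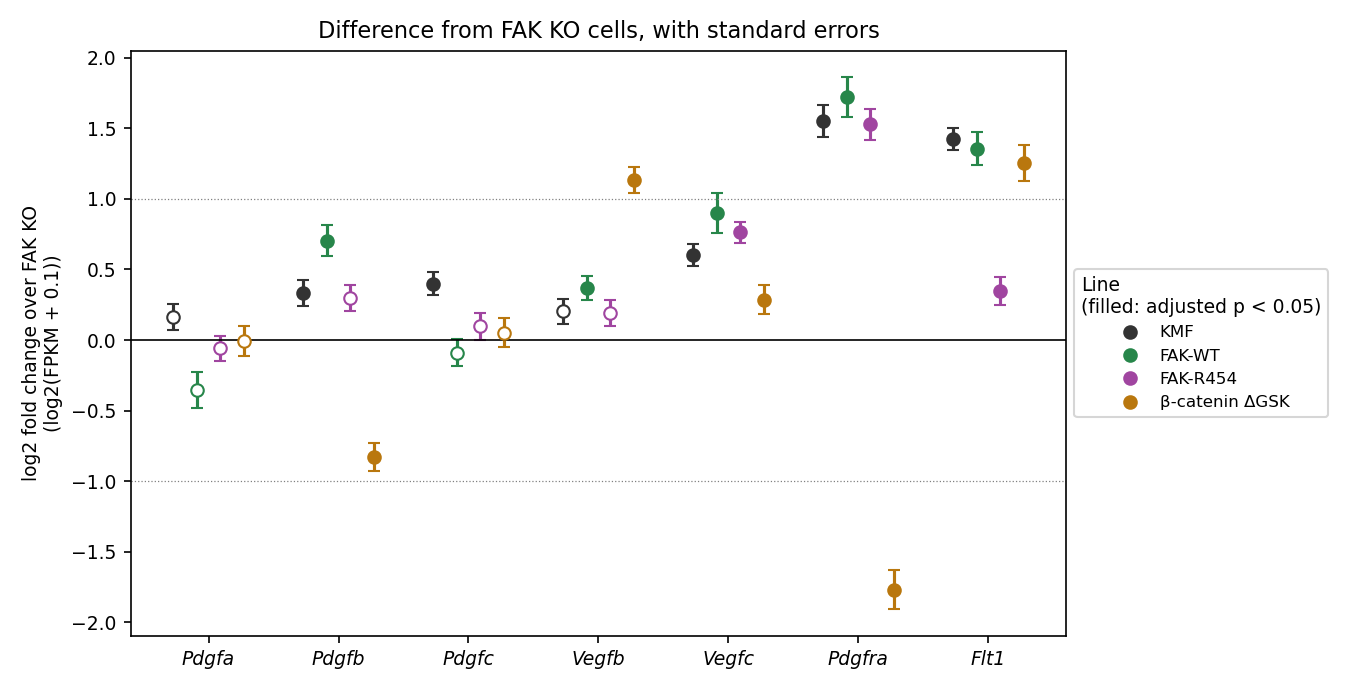
Log2 fold change over FAK KO (points) with its SE (bars) for the 7 expressed genes in 4 lines, on the log2(FPKM + 0.1) scale, where filled points passed the adjusted p threshold of 0.05 and dotted lines mark 2-fold. Pdgfra lies between 1.53 and 1.72 in 3 lines and at -1.77 in β-catenin ΔGSK cells, and Vegfb passes 1 only in β-catenin ΔGSK cells.

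Of 10 further ligands and co-receptors of both families, 5 could be tested. Flt4, which encodes VEGFR3, the receptor for VEGF-C, was at 3.92 ± 0.311 FPKM in FAK KO, 3.46 ± 0.326 in FAK-WT, 1.90 ± 0.165 in KMF (SD, n = 3 each) and 4.12 ± 0.184 in FAK-R454 cells (SD, n = 2). In β-catenin ΔGSK cells it was at 13.8 ± 1.62 FPKM (SD, n = 3), a rise over FAK KO of 1.79 (adjusted p = 2.20e-06 from limma), while in KMF cells it fell by 1.01 (adjusted p = 1.30e-04). Figf, which encodes VEGF-D, fell in β-catenin ΔGSK cells from 2.84 ± 0.535 to 0.974 ± 0.163 FPKM (log2 fold change -1.45, adjusted p = 1.71e-04). Nrp2, the co-receptor for VEGF-C, rose by 0.25 in FAK-WT (adjusted p = 0.0106) and by 0.24 in FAK-R454 cells (adjusted p = 0.0330), and fell by 0.61 in β-catenin ΔGSK cells (adjusted p = 9.32e-05). Nrp1 had line means of up to 17.6 FPKM, and no difference from FAK KO passed. Pgf, the placental growth factor that binds VEGFR1, and Kit, a receptor related to PDGFRα, had line means of at most 0.154 and 0.299 FPKM. The third lower call in β-catenin ΔGSK cells was Lrp1 (-0.69, adjusted p = 0.00149), a large endocytic receptor.

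**Figure D5:**
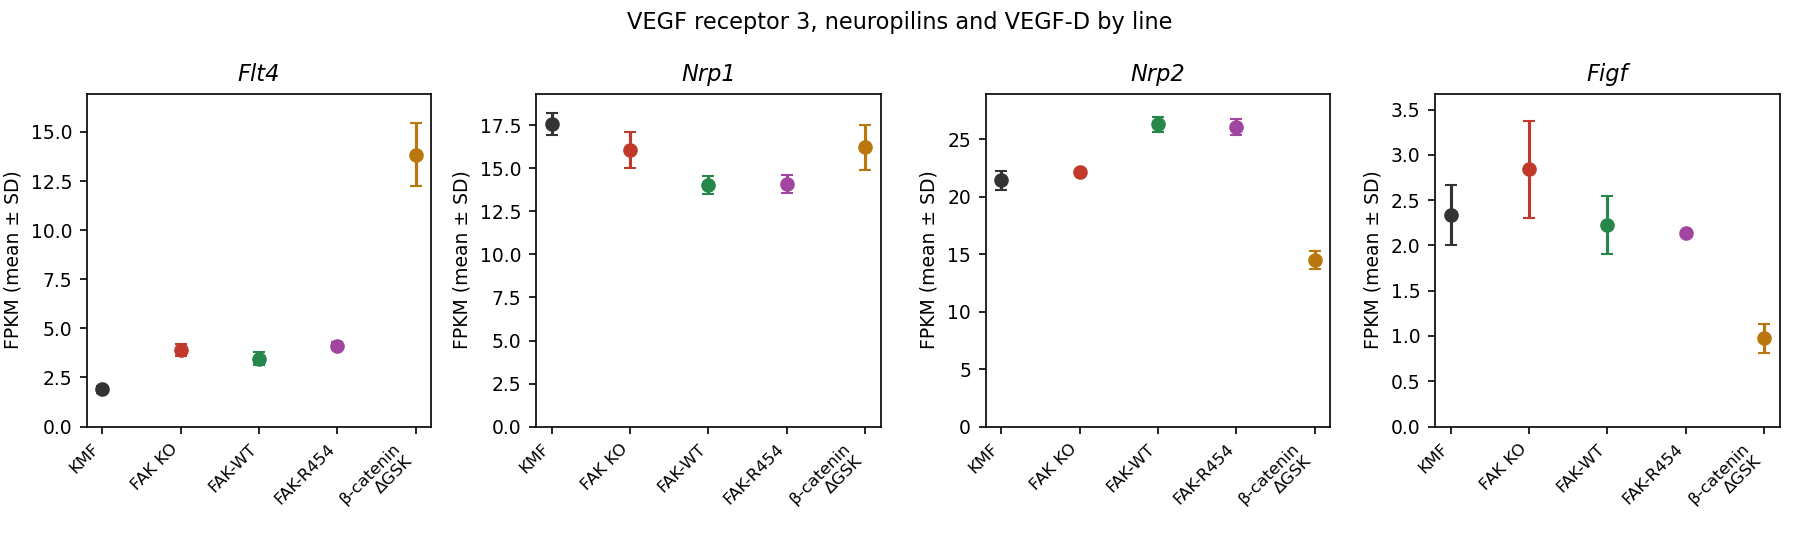
Mean FPKM with SD of Flt4, Nrp1, Nrp2 and Figf in each line (n = 3, FAK-R454 n = 2), every axis starting at 0. Flt4 was at 13.8 FPKM in β-catenin ΔGSK cells and at most 4.12 in the other lines, where Nrp2 and Figf were at their lowest in β-catenin ΔGSK cells.

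Several PDGF and VEGF ligands are activated by proteolysis, and 8 of 11 proteases and cofactors could be tested in β-catenin ΔGSK over FAK KO cells. There, 4 rose and 2 fell, each by 2-fold or more, against 5.13% and 6.99% of all genes. Plat, tissue plasminogen activator, which cleaves PDGF-C, rose from 17.1 ± 0.690 to 41.0 ± 2.12 FPKM (log2 fold change 1.26, adjusted p = 1.33e-06 from limma). Pcsk5, a proprotein convertase, rose from 1.32 ± 0.0450 to 5.99 ± 0.576 FPKM (2.10, adjusted p = 1.12e-06). Adamts3, which processes VEGF-C, rose by 1.52 (adjusted p = 1.60e-04) from a level of 0.414 FPKM. Plau, urokinase, fell by 1.65 (adjusted p = 5.87e-05). In FAK-WT cells 2 of 8 rose and 0 fell, with Adamts3 (1.18, adjusted p = 0.00587) the 1 that passed 2-fold, against 15.6% and 25.2% of all genes that rose and fell. In KMF cells 2 rose and 2 fell, with Pcsk6 at 1.46 (adjusted p = 5.14e-04) and Pcsk5 at -1.10 (adjusted p = 7.15e-04) past 2-fold, where 23.1% of all genes rose and 28.7% fell, 3.97% and 4.04% by 2-fold or more. In FAK-R454 cells 1 of 7 rose and 1 fell, against 9.78% and 9.89%. Furin, the convertase with broad range, lay between line means of 57.7 and 77.1 FPKM. It did not pass in any comparison with FAK KO or between FAK-WT and FAK-R454, and other pairs were not tested for this list.

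Downstream of the receptors, 22 of 26 signalling partners that bind them were tested. In FAK-WT over FAK KO cells 3 rose and 5 fell, in FAK-R454 3 and 3, in KMF 6 and 9, and in β-catenin ΔGSK 4 and 11. Over all genes the shares that rose and fell were 15.6% and 25.2%, 9.78% and 9.89%, 23.1% and 28.7%, and 23.7% and 34.4% in these lines. The β-catenin ΔGSK changes included falls of 2-fold or more for Pik3r3 (-1.41, adjusted p = 2.20e-06 from limma), a regulatory subunit of PI 3-kinase, Nck1 (-1.24, adjusted p = 2.70e-04) and Sh3bp2 (-1.13, adjusted p = 2.13e-05), both adaptor proteins. Of 16 attenuators, 15 were tested, where 5 rose and 5 fell in FAK-WT, 2 and 0 in FAK-R454, 4 and 3 in KMF, and 5 and 6 in β-catenin ΔGSK cells. Socs1, a suppressor of cytokine signalling, rose there by 1.99 (adjusted p = 5.46e-05), and Spry1, an inhibitor of receptor tyrosine kinase signalling, fell by 1.21 (adjusted p = 4.56e-05). In β-catenin ΔGSK over FAK KO cells the median log2 fold change was -0.61 over the tested ligands and co-receptors, 0.59 over the proteases, -0.19 over the signalling partners and -0.06 over the attenuators, against -0.09 over all genes. Between FAK-WT and FAK-R454, 0 of the 50 tested genes of these 4 lists were higher in FAK-WT and 4 were lower (Spry2, Plcg1, Nck2 and Fyn, named after their values were seen), against 3.38% and 4.44% of all genes. Without FAK-WT sample 3 the counts were 3 and 13, where 12.8% and 15.3% of all genes were higher and lower. Without any 1 of the other 4 samples 0 were lower, in fits with 3 to 177 lower genes in all. In FAK-WT over FAK KO cells all 4 lists together held 11 higher and 10 lower genes. The lower count was 5 under median-of-ratios scaling, 2 with each chromosome centred, 6 without the filter, 4 without FAK KO sample 3 or FAK-WT sample 2, 5 without FAK-WT sample 1 and 6 without FAK KO sample 1, while the higher count lay between 8 and 11 in these fits. The share of all genes that were lower fell as well, from 25.2% to 17.1%, 13.8%, 11.7%, 13.0%, 15.6%, 18.8% and 17.6% in that order.

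The genes whose levels followed Pdgfra most closely over the 14 samples, among 11384 protein-coding genes, were Mylk (Pearson r = 0.991), Efnb2 (0.988) and Col3a1 (0.980), which encode myosin light chain kinase, ephrin-B2 and a fibrillar collagen. Col3a1 had line means of 44.9 FPKM in KMF, 37.6 in FAK-WT, 25.2 in FAK-R454, 7.32 in FAK KO and 0.277 in β-catenin ΔGSK cells. Pdgfb was followed by Elk3 (0.974), Psd (0.974) and Dnm1 (0.972), and Flt1 by Hpse (0.975), Jag2 (0.965) and Klf5 (0.959). Hpse, heparanase, was at 2.32 FPKM in FAK KO and 4.04 in FAK-R454 cells and between 8.13 and 10.3 in the other 3 lines. These correlations describe samples that share 5 lines, and carry no test.

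Genes that neighbour Pdgfra on chromosome 5 did not show its range. Chic2 lay between line means of 12.1 and 16.3 FPKM and Srd5a3 between 9.29 and 10.7, with Kit and Kdr at or near 0. In β-catenin ΔGSK over FAK KO cells the 779 tested genes of chromosome 5 had a median 0.24 below that of the other chromosomes. With each chromosome centred, the fall of Pdgfra and the rise of Flt1 were both still called.

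Pdgfra is a marker of fibroblasts, and 12 other genes of fibroblasts and pericytes were read beside it. Their summed level was 90.2 to 127 FPKM in FAK KO, 119 to 147 in FAK-WT, 119 to 128 in FAK-R454, 37.2 to 46.6 in KMF and 32.4 to 46.6 in β-catenin ΔGSK samples, and 7 of 12 were at 1 FPKM or less in all 14. Dcn carried most of the sum. Col1a1 had line means of 10.1 FPKM in FAK-R454, 9.12 in FAK-WT, 2.46 in KMF, 1.33 in FAK KO and 0.194 in β-catenin ΔGSK cells. In the same order Notch3 was at 2.37, 4.69, 4.07, 0.811 and 0.993 FPKM, and Des at 1.95, 2.41, 0.836, 1.43 and 1.66. Rgs5 was at 0.954, 0.512, 0.0149, 1.08 and 0.0801 FPKM, and Dcn at 108, 113, 33.1, 99.0 and 38.6. Col1a2 was at 0.0119 or less and Lum at 0.0171 or less in every line. Flt1 is a marker of endothelium, and 10 endothelial genes summed to 33.1 to 34.8 FPKM in FAK KO, 36.7 to 39.6 in FAK-WT, 36.2 to 38.7 in FAK-R454, 54.7 to 56.3 in KMF and 73.8 to 81.3 in β-catenin ΔGSK samples. Tek and Esam made up most of it, and 4 of the 10 could be tested in β-catenin ΔGSK over FAK KO cells, each changed 2-fold or more, where 5.13% of all genes rose and 6.99% fell that far. Esam rose there from 14.3 to 61.8 FPKM and Robo4 from 1.10 to 9.61, whereas Tek fell from 17.4 to 6.75 and Pecam1 from 1.02 to 0.286. Of the list, 6 of 10 were at 1 FPKM or less in all 14, and Cdh5, Cldn5 and Erg were at or near 0 as given above. Among leukocyte genes, 6 of the 7 found were at 1 FPKM or less, and Cd68 alone was above it, with line means from 1.32 FPKM in β-catenin ΔGSK to 8.62 in FAK-WT cells. The part of these marker genes in the Pdgfra and Flt1 results was not tested.

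Several VEGF family genes respond to low oxygen, so a list of 24 hypoxia response genes was summed in each sample. The sum was 2148 to 2699 FPKM in FAK KO, 3322 to 3361 in FAK-R454, 3444 to 4576 in KMF and 4128 to 5485 in β-catenin ΔGSK samples. In FAK-WT it was 3176 and 3522 FPKM in samples 1 and 2 and 6124 in sample 3, the sample with the highest Vegfc and Flt1 and the lowest Pdgfra of its line. Of the list, 9 of 23 tested genes rose and 1 fell in FAK-WT, 7 and 1 of 22 in FAK-R454, 10 and 3 of 23 in KMF and 14 and 2 of 22 in β-catenin ΔGSK over FAK KO cells. The shares of all genes that rose and fell were 15.6% and 25.2%, 9.78% and 9.89%, 23.1% and 28.7%, and 23.7% and 34.4%, in the same order. Aldoa, Pgk1 and Ldha, enzymes of glycolysis and the most abundant of the list, rose in β-catenin ΔGSK cells by 0.82, 1.49 and 1.20 (adjusted p = 1.41e-04, 5.15e-04 and 6.18e-05 from limma). At 826, 367 and 387 FPKM in FAK KO cells they carried most of the sum, which therefore says little about the low genes of the list. Every other line had a higher Vegfc than FAK KO and, in all its samples, a higher hypoxia sum, but the lines were ordered differently in the 2 values. Median sums were 3342 FPKM in FAK-R454, 3522 in FAK-WT, 3749 in KMF and 5064 in β-catenin ΔGSK cells. The Vegfc rises were 0.76, 0.90, 0.60 and 0.29 in the same order. The part of the hypoxia genes in the Vegfc and Flt1 results was not tested.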

How the data were processed

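RNA of 14 samples of 5 lines was sequenced after poly(A) selection (NEBNext Ultra RNA kit). The authors deposited 1 table of FPKM per gene and sample. The submitters' processing notes name CASAVA 1.8, STAR 2.5, DESeq2 and mm10, whereas the study's methods name TopHat2, so the aligner behind these values is not settled. Gene coordinates in the table were within 100 kb of GENCODE M21 (GRCm38) for 99.7% of 34490 shared genes. Use of strand in counting is not stated. FPKM times gene length, divided by 1 step per library, gave whole fragments for 100% of values (tolerance 0.01), with a median of 28720224 fragments per library. Replicates are labelled as independent RNA samples. The methods place those of KMF at different passages and do not say this of the other lines, for which p-values measure the spread between samples that may be technical. No libraries were identical.

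Lines were compared in pairs on log2(FPKM + 0.1), which understates changes of low genes, with limma 3.58.1 (R 4.3.3, lmFit and eBayes with trend), for genes with mean FPKM above 1 in at least 1 of the 2 lines. P-values were Benjamini-Hochberg adjusted over all genes tested. A gene rose or fell at adjusted p under 0.05, and by 2-fold or more where its log2 fold change was also at least 1 in size with mean FPKM above 1 in the higher line. The comparisons with FAK KO share its samples. A permutation of 3 against 3 samples cannot go below p = 0.1. The script was tested on simulated data. Figures used matplotlib 3.10.9.

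The members and lists were chosen with earlier results of these data known. Named were all 10 members, genes of 4 pathway lists (63 genes) changed 2-fold or more (up to 4 per list and comparison), Flt4, Nrp1, Nrp2, Pgf and Kit regardless, the 3 most abundant hypoxia genes, and, for the 3 members with the widest range of line means, the 3 genes of highest Pearson correlation. Plat, Lrp1, Furin, Spry2, Plcg1, Nck2, Fyn and the marker genes were named outside this rule, after their values were seen. A gene of the protease list that met the rule is counted but not reported here. Alternatives were a pseudocount of 1, no filter, a filter of 5 FPKM, no mean-variance trend, median-of-ratios scaling, a joint fit of the 5 lines, the replicate number as a block, limma-voom on recovered fragments, chromosome centring, and each sample left out. Pairing by replicate number required deviations of same-numbered samples to correlate above 0.1 in every pair, which no comparison met; β-catenin ΔGSK and FAK KO came nearest (0.45, 0.28 and 0.076).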

Additional observations from a re-analysis of the deposited data

How the results depend on the processing

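Single members had 510 values under alternatives in the 4 comparisons with FAK KO and in FAK-WT over FAK-R454. Of these, 20 gained a call, 24 lost one and 12 changed sign, these 12 in differences not called in the report, and the rest kept direction and call. The other pairs of lines are not in this count. Calls changed there too, as given above, and Vegfb in FAK-WT over KMF ran from -0.12 to 0.21. Pdgfa over FAK KO was 0.069 in FAK-R454 with each chromosome centred (0.013 to -0.13 with 1 sample left out). In β-catenin ΔGSK cells it was 0.068 with median-of-ratios scaling and 0.31 with centring (adjusted p = 0.0412 from limma), with -0.075 to 0.10 when 1 sample was left out (0.0506 without FAK KO sample 1, 0.009 without FAK KO sample 2, 0.1047 without β-catenin ΔGSK sample 3). Pdgfc over FAK KO was 0.037 in FAK-WT with centring, and -0.029 to 0.12 in β-catenin ΔGSK cells with 1 sample left out. The cause was not tested. The rises and falls of Pdgfra, and the rises of Flt1 apart from FAK-R454, were called in every alternative in which they were tested against FAK KO.

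The count of members that differed between FAK-R454 and FAK KO cells was 3, and 2 to 5 with 1 sample left out (5 without FAK KO sample 2, where 4390 of all genes differed in place of 2325). Between FAK-WT and FAK-R454 it was 1, 2 in 1 fit of 5 lines, and 0 to 5 with 1 sample left out. The count of 2-fold changes there was 1, and 0 with a pseudocount of 1 or with centring, as Flt1 lies close to 2-fold, and 0 to 1 with 1 sample left out. With the replicate block these counts were 5 and 0, and the difference in Vegfc was -0.038 (-0.038 to 0.27 with 1 sample left out), the same values as without FAK-WT sample 3, since the block leaves that sample without a partner. No source ties the replicate numbers to a shared culture or batch, so the block result is given only here; it changed no other count of members past 1.5 times, and over all genes FAK-WT and FAK-R454 then differed in 1567 higher and 1826 lower genes.

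For all genes, median-of-ratios scaling changed the calls of FAK-WT over FAK KO from 1851 higher and 2986 lower to 2425 and 2020, and of FAK-WT over FAK-R454 from 398 and 523 to 556 and 388, while medians of all genes moved by less than 0.1. Centring gave 1935 and 1632, 313 and 215, and 3512 and 3167 for β-catenin ΔGSK over FAK KO, where the counts were 2828 and 4100. Depth limits Pdgfd, Kdr and Pdgfrb, for which differences of a few fragments cannot be read, and 2 samples limit FAK-R454.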
